A study of Mus musculus with 16 samples.

Results

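The 10 genes described here, Per1, Per2, Per3, Cry1, Cry2, Arntl, Clock, Nr1d1, Nr1d2 and Bhlhe40, belong to the circadian clock and were picked by name out of the 39179 genes in the count files. Each had a row in every sample, and all 10 passed the filter on low counts and were among the 13305 genes tested. RNA was sequenced from 16 samples of BMMCs, mast cells that were grown for 4 weeks out of the bone marrow of male C57BL/6 mice aged 8 to 10 weeks. The mice were wild-type (PEP+/+) or lacked PEP (PEP-/-), the PEST-domain-enriched tyrosine phosphatase that the gene Ptpn22 encodes; how the allele was disrupted is not given in the sources used here. All BMMCs were sensitized with IgE for 3 h, at 0.05 µg/ml according to the sample labels and at a higher dose according to the methods of the study. Per genotype, 2 samples received IgE alone, 2 received 100 nM of the glucocorticoid dexamethasone (DEX) for 8 h as well (IgE DEX), 2 received the antigen dinitrophenol (DNP) at 200 ng/ml for 1 h (IgE DNP), and 2 received both (IgE DNP DEX). According to the methods of the study, DNP was given as dinitrophenyl-bovine serum albumin. Sensitized cells without antigen are called sensitized below, and cells given DNP are called activated.

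The clock is a feedback loop of transcription. CLOCK and BMAL1, the product of Arntl, bind E-box sequences together and switch on the Per and Cry genes, whose proteins return to the nucleus and repress that pair. The nuclear receptors REV-ERBα (Nr1d1) and REV-ERBβ (Nr1d2) repress Arntl, and BHLHE40, also called DEC1, represses E-box genes. Glucocorticoids are a known resetting signal for clocks outside the brain, and the mast cell is a cell in which a clock and its link to IgE-dependent degranulation have been studied. The hour of the day at which the cells were treated and harvested is not given in the sources used here, and there is 1 time point per treatment, so no rhythm could be measured.

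Between 8612531 and 22143526 reads per sample were counted on genes, with a median of 12814043.5. Ptpn22 had 130 to 2799 reads in the PEP+/+ samples and 0 to 55 in the PEP-/- samples, as the genotype labels state. All 10 mast cell markers exceeded 1 CPM (reads scaled to a common library size with edgeR's TMM factors) in the median sample. Their sum also moved with the treatments: 67998 to 76839 CPM with IgE, 74121 to 82704 with IgE DEX, 75938 to 90379 with IgE DNP and 84026 to 107130 with IgE DNP DEX. The sum of the 4 T cell markers reached at most 0.13 CPM (Cd3e and Cd3g were at 0 in every sample) and those of the 5 neutrophil and 3 dendritic cell markers 2.35 and 2.25 CPM. Of 7 macrophage or monocyte markers, 3 exceeded 1 CPM in the median sample (Lyz2 at 3.12 to 11 CPM, Adgre1 at 1.05 to 6.38, Cd14 at 0.434 to 4.68), C1qa was at 0 in every sample, and the sum was 5.8 to 17.9 CPM. The sum of the 3 eosinophil markers, most of it Siglecf with Epx at 0, was 0.173 to 2.09 CPM with IgE, 0.547 to 4.2 with IgE DEX, 2.81 to 7.79 with IgE DNP and 1.56 to 8.06 with IgE DNP DEX, and that of the 3 erythroid markers 1.22 to 10.3 CPM. The sum of the 3 basophil markers, most of it Cd200r3, moved with the treatments: 539 to 623 CPM with IgE, 228 to 392 with IgE DEX, 750 to 882 with IgE DNP and 431 to 479 with IgE DNP DEX. Mcpt8 was at 8.03 to 62.8 CPM and Prss34 at 10.2 to 59.4, and which cells the Cd200r3 reads came from was not tested. The part of each of these cell types in the responses given below was not tested, and in bulk RNA fewer cells of a type and less RNA per cell cannot be told apart. In every group 1 sample is numbered and 1 is lettered in the labels, and 38.2% of all genes tested lay on the same side of the numbered sample in all 8 lettered ones. Among the 10 clock genes, 5 did: Per1 (mean difference 0.49 on the log2 scale) and Per2 (0.74) were higher in all 8 lettered samples, and Cry1 (-0.57), Clock (-0.49) and Bhlhe40 (-0.33) were lower in all 8. Responses are therefore also given within each set and with the set as a replicate block. The series calls the replicates biological, but does not say whether they came from separate mice or cultures, so the p-values measure the spread between these samples, part of which may be technical. Without the block, this spread also holds the difference between the sets, which lies within every group.

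The start regions of these genes are shown because they hold, or lack, the short sequences through which the clock and the treatments are known to act. RefSeq windows on GRCm38.p6, from 250 bases before to 50 after a transcription start, were matched to 8 of the 10 genes, 12 windows in all; Per2 and Bhlhe40 were not matched. Both strands were searched for the E-box CACGTG, the D-box TTATGNAA bound by DBP, TEF, HLF and NFIL3, the ROR element (AANT followed directly by AGGTCA) bound by the ROR and REV-ERB receptors, the cAMP response element TGACGTCA and the half-site TGACG contained in it, and the palindromic glucocorticoid response element (GNACA and TGTNC with 3 bases between them). The windows that follow are those of Per1 (both starts), Per3, Cry1 and the second Arntl start, read 5′ to 3′ on the strand of the gene, with the matches in capitals.
Per1, first start, chr11:69098699-69098998, plus strand: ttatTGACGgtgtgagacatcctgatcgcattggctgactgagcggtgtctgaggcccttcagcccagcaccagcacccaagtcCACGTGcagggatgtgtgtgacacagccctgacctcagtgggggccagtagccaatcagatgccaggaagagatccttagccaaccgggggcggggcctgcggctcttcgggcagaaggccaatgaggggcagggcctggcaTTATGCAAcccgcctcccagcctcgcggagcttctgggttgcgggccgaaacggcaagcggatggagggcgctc
Per1, second start, chr11:69099902-69100201, plus strand: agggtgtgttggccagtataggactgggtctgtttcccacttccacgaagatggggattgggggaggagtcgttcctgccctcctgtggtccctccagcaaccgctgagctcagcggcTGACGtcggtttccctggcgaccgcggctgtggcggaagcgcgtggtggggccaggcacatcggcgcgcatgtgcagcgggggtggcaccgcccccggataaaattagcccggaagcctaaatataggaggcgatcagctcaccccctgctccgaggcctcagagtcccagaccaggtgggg
Per3, chr4:151044616-151044915, minus strand: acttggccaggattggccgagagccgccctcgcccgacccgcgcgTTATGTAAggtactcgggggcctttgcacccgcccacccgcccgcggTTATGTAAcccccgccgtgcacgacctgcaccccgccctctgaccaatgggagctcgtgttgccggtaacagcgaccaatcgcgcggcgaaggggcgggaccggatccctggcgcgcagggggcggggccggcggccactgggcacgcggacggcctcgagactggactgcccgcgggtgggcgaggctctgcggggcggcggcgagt
Cry1, chr10:85185005-85185304, minus strand: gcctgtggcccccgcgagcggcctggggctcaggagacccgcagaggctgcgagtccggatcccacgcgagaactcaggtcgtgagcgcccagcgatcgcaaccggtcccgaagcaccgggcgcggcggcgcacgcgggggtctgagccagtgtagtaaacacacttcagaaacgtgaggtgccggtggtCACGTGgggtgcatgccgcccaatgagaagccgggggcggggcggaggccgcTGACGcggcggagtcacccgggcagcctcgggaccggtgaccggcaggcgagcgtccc
Arntl, second start, chr7:113207261-113207560, plus strand: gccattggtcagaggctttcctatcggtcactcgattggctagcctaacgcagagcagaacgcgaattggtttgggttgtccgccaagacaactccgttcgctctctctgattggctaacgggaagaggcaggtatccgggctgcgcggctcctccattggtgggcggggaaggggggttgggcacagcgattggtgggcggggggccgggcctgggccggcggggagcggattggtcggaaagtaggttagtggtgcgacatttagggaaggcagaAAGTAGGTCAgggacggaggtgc

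Counted in bases from the start, an E-box lay at -166 from the first Per1 start and at -60 from the Cry1 start, and 7.15% of all 32851 windows hold one. Per3 carried a D-box at -205 and another at -158, and the first Per1 window held one at -24; this sequence occurs in 3.38% of all windows. The only ROR element in the clock windows, a sequence in 0.219% of all windows, stood at +28 from the second Arntl start. The half-site TGACG was in both Per1 windows, in that of Cry1 and, on the reverse strand, in that of Cry2, against 20.8% of all windows. The full cAMP response element and the palindromic glucocorticoid element, which 1.79% and 0.475% of all windows hold, were in none of the 12. These are matches of letters in short windows, and no match says only that the letters are not there.

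Levels differed widely between the genes. In RPKM, that is CPM per kilobase of exon, the repressor gene Bhlhe40 had the highest mean level over the 16 samples, 78.4 RPKM (range 26.6 to 153), followed by Per1 at 17.6 RPKM (4.36 to 42.1) and Cry1 at 6.98 RPKM (3.88 to 12). Cry2 (3.62 RPKM), Per2 (3.5), Nr1d2 (2.93), Arntl (1.42), Per3 (1.39) and Clock (1.02) followed in that order. Nr1d1 came last with 0.185 RPKM and 2 to 21 reads per sample, and 263 of its exon bases are shared with Thra on the opposite strand. The sample ranges of each pair of neighbours in this order overlapped, except for Clock (lowest 0.601 RPKM) and Nr1d1 (highest 0.407 RPKM).

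**Figure D1:**
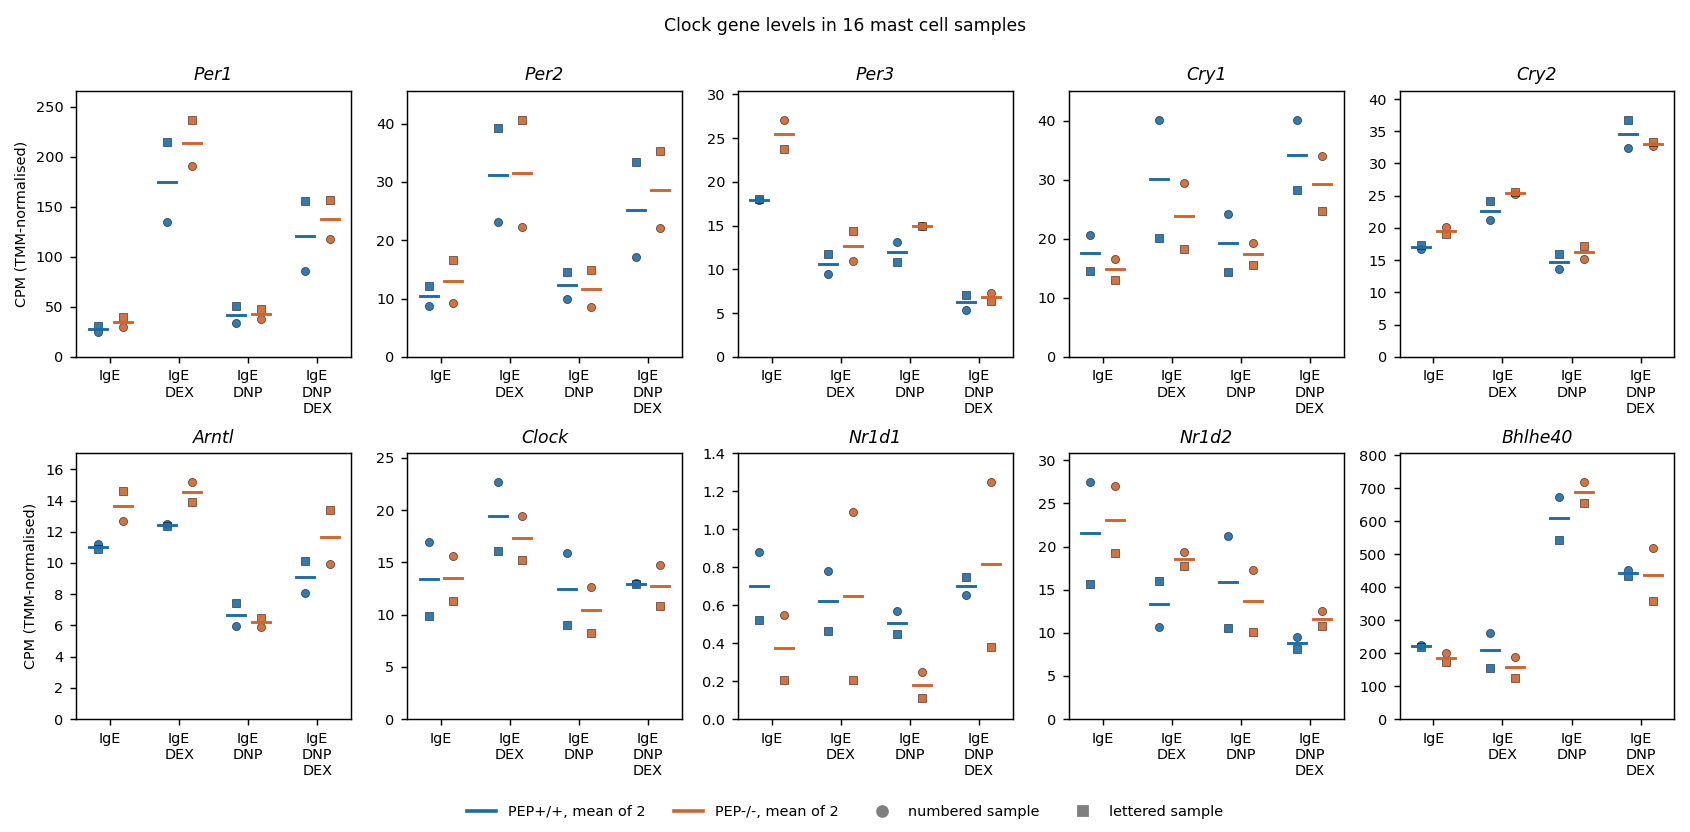
Level of each clock gene in the 16 samples, in CPM on a linear axis from 0 with a scale of its own per panel, by treatment; circles are numbered samples, squares lettered samples, blue PEP+/+, orange PEP-/-, and bars the mean of 2. Per1 lies between 135 and 237 CPM with IgE DEX against 24.5 to 40.0 with IgE, and Bhlhe40 between 543 and 719 CPM with IgE DNP against 172 to 225 with IgE.

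The first question was how DEX changed the clock genes of sensitized and of activated cells, and it was asked over both genotypes. Per1 and Per2 rose and Per3 fell with DEX in both states, so the 3 Period genes did not move together. Cry2 and Arntl rose with DEX in activated cells. No clock gene was called by edgeR without the replicate block for a difference in DEX response between these states. Each averaged response compares 4 samples with 4, and a gene is said to be called, to rise or to fall where the Benjamini-Hochberg adjusted p of edgeR's quasi-likelihood test over the 13305 genes was below 0.05. Of the 10 genes, 2 were called higher and 1 lower with DEX in sensitized cells (9.37% of all genes tested were called, 5.4% higher and 3.98% lower). In activated cells 4 were called higher and 1 lower, where 10.7% of all genes were called (5.67% higher, 4.99% lower). The median log2 fold change of the 10 was 0.38 in sensitized and 0.73 in activated cells, against 0.00 and -0.01 over all genes tested. Tsc22d3 and Fkbp5, established glucocorticoid-induced genes, rose by 3.13 and 3.26 on the log2 scale in sensitized cells.

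Per1 encodes a repressor that is induced by many resetting signals. In PEP+/+ BMMCs it was at 24.5 and 30.6 CPM with IgE, 135 and 215 with IgE DEX, 33.5 and 50.6 with IgE DNP, and 85.3 and 156 with IgE DNP DEX (numbered sample first). In PEP-/- BMMCs the values were 29.5 and 40.0, 191 and 237, 37.7 and 47.4, and 118 and 157 CPM in the same order. All DEX samples lay above all samples without DEX, in both states and both genotypes. The log2 fold change was 2.64 (SE 0.25, 6.25-fold, edgeR adjusted p = 5.95e-05) in sensitized cells and 1.61 (SE 0.24, 3.05-fold, edgeR adjusted p = 0.00167) in activated cells. Within the sets and genotypes it lay between 2.45 and 2.81 in sensitized cells and between 1.35 and 1.73 in activated cells.

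Per2, the second repressor of the pair most tied to resetting, was also highest with IgE DEX and next highest with IgE DNP DEX in the means of both genotypes. The PEP+/+ samples held 8.67 and 12.1 CPM with IgE, 23.1 and 39.3 with IgE DEX, 10.0 and 14.5 with IgE DNP, and 17.1 and 33.4 with IgE DNP DEX. The PEP-/- samples held 9.29 and 16.6, 22.3 and 40.7, 8.53 and 14.9, and 22.1 and 35.3 CPM. Samples with and without DEX did not overlap in either state, but the lettered sample was the higher one in every group. The log2 fold change was 1.43 (SE 0.34, edgeR adjusted p = 0.0209) in sensitized cells and 1.17 (SE 0.34, edgeR adjusted p = 0.0492) in activated cells, and with the replicate block 1.41 and 1.15 (edgeR adjusted p = 2.05e-07 and 2.18e-06). Without the block the first call was lost when the numbered IgE sample or the lettered IgE DEX sample of either genotype was left out (edgeR adjusted p up to 0.0876). The second was kept only without the numbered PEP+/+ IgE DNP DEX sample or either PEP-/- IgE DEX sample (edgeR adjusted p 0.0447 to 0.166 over the 16 omissions, with log2 fold changes of 0.90 to 1.41). That call of Per2 was also lost with only the groups compared (edgeR adjusted p = 0.0697) and with at least 10 counts in every sample (0.0616).

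Per3, whose protein is not required for the core loop, went the other way. Its level in PEP+/+ BMMCs was 17.9 and 18.0 CPM with IgE, 9.51 and 11.8 with IgE DEX, 13.1 and 10.8 with IgE DNP, and 5.34 and 7.12 with IgE DNP DEX. In PEP-/- BMMCs it was 27.1 and 23.8, 11 and 14.4, 15.0 and 15.0, and 7.27 and 6.38 CPM. The highest values were those of the IgE samples and the lowest those given both agents, and DEX samples lay below the samples without DEX in each state. Per3 fell by 0.88 on the log2 scale (SE 0.16, edgeR adjusted p = 0.00501) in sensitized cells and by 1.03 (SE 0.17, edgeR adjusted p = 0.00223) in activated cells. Both calls held without any 1 sample.

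Cry1 and Cry2 encode the cryptochromes, the partners of the PER proteins in repression. Cry2 was at 16.7 and 17.3 CPM with IgE, 21.2 and 24.1 with IgE DEX, 13.6 and 15.9 with IgE DNP and 32.4 and 36.8 with IgE DNP DEX in PEP+/+ BMMCs. The PEP-/- values were 20.1 and 19.0, 25.3 and 25.5, 15.2 and 17.2, and 32.7 and 33.3 CPM. D930015M05Rik on the opposite strand shares 295 of the 6320 exon bases of Cry2. The 4 samples with both agents were the highest of the 16 and those with DNP alone included the lowest. The DEX effect on Cry2 in activated cells was 1.13 (SE 0.12, 2.19-fold, edgeR adjusted p = 0.000143), which held without any 1 sample. In sensitized cells its log2 fold change was 0.40 (SE 0.12, edgeR adjusted p = 0.062), and with the replicate block 0.40 (edgeR adjusted p = 0.00589).

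For Cry1, DEX gave log2 fold changes of 0.73 (SE 0.28, edgeR adjusted p = 0.151) in sensitized and 0.79 (SE 0.28, edgeR adjusted p = 0.102) in activated cells. Its level was 13 to 20.6 CPM with IgE, 18.2 to 40.1 with IgE DEX, 14.3 to 24.2 with IgE DNP and 24.7 to 40.2 with IgE DNP DEX. Every numbered Cry1 sample was above its lettered partner, and all 4 differences within a set were above 0 in each state. Cry1 was called in both states with the replicate block (edgeR adjusted p = 0.000541 and 0.000176).

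Of the activators, Arntl was not called with DEX in sensitized cells (log2 fold change 0.14, SE 0.16, edgeR adjusted p = 0.786) and rose in activated cells by 0.68 (SE 0.16, 1.6-fold, edgeR adjusted p = 0.0214). The rise was lost without a numbered or lettered PEP-/- IgE DNP sample, the numbered PEP+/+ IgE DNP sample or the lettered IgE DNP DEX sample of either genotype (edgeR adjusted p up to 0.0802), with no filter on low counts (0.127) and with only the groups compared (0.112). Clock had log2 fold changes of 0.45 (SE 0.26, edgeR adjusted p = 0.398) and 0.17 (SE 0.26, edgeR adjusted p = 0.778), and the first was called with the replicate block (0.46, edgeR adjusted p = 0.0155).

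The REV-ERB genes and Bhlhe40, the remaining repressors, were called in neither state. Nr1d2 had log2 fold changes of -0.50 (SE 0.28) and -0.54 (SE 0.28), and Nr1d1, at no more than 21 reads per sample, 0.37 (SE 0.57) and 1.34 (SE 0.62). Bhlhe40 had -0.17 (SE 0.20) in sensitized and -0.55 (SE 0.20, edgeR adjusted p = 0.109) in activated cells, where all 4 IgE DNP DEX samples (358 to 518 CPM) lay below all 4 IgE DNP samples. With the replicate block, Bhlhe40 was called lower (-0.56, edgeR adjusted p = 0.00292) and Nr1d1 higher (1.40, edgeR adjusted p = 0.0273) in activated cells. That block raised the number of clock genes called from 3 to 6 in sensitized and from 5 to 8 in activated cells, and the share of all genes called to 26.7% and 33.3%.

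**Figure D2:**
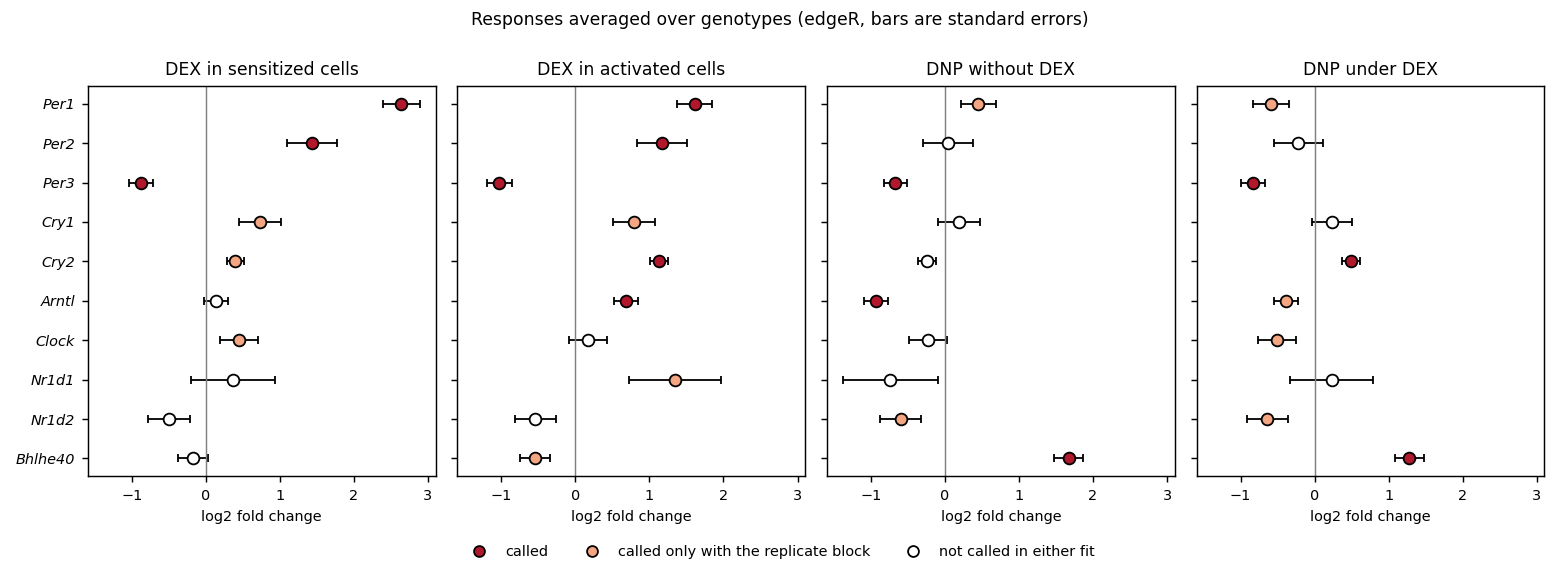
Log2 fold change (x axis) of each clock gene in the 4 comparisons averaged over genotypes, with standard errors from edgeR as bars; red points were called, light points only with the replicate block, open points in neither. Per1 has the largest response to DEX (2.64 in sensitized cells) and Bhlhe40 the largest to DNP (1.67 without DEX), while Per3 lies below 0 in all 4 panels.

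The second question was how antigen changed these genes after 1 h, without DEX and under DEX. DNP raised Bhlhe40 and lowered Per3 in both settings, lowered Arntl without DEX, and raised Cry2 under DEX. Of the 10 genes, 1 was called higher and 2 lower without DEX, where 16.7% of all genes were called (9.07% higher, 7.58% lower). Under DEX 2 were called higher and 1 lower, and 12.6% of all genes were called (7.19% higher, 5.42% lower). The median log2 fold changes of the 10 were -0.24 and -0.30, against 0.00 and -0.02 over all genes. Il13 and Tnf, cytokine genes that antigen is known to induce in mast cells, rose by 6.70 and 7.99 on the log2 scale without DEX. The 4 stimulus comparisons form a square and each shares its samples with 2 others, so their values are set side by side and are not independent of each other.

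Bhlhe40 encodes a basic helix-loop-helix repressor that many stimuli induce early. In PEP+/+ BMMCs its level was 225 and 219 CPM with IgE, 674 and 543 with IgE DNP, 261 and 155 with IgE DEX, and 452 and 434 with IgE DNP DEX. In PEP-/- BMMCs it was 200 and 172, 719 and 656, 189 and 125, and 518 and 358 CPM. Every DNP sample lay above every sample without DNP, whether DEX was present or not. The log2 fold change was 1.67 without DEX (SE 0.20, 3.18-fold, edgeR adjusted p = 0.000205) and 1.28 under DEX (SE 0.20, 2.44-fold, edgeR adjusted p = 0.0017). These calls held without any 1 sample, and the 4 differences within sets ranged from 1.31 to 1.93 and from 0.79 to 1.52. An antisense gene, 0610040F04Rik, shares 118 of its 4705 exon bases, and the strand setting of the counting is not given in the sources used here.

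Arntl, the gene of the activator BMAL1, moved in the opposite direction. Its level in PEP+/+ BMMCs was 11.2 and 10.9 CPM with IgE, 5.96 and 7.43 with IgE DNP, 12.5 and 12.4 with IgE DEX, and 8.07 and 10.1 with IgE DNP DEX. In PEP-/- BMMCs it was 12.7 and 14.6, 5.91 and 6.49, 15.2 and 13.9, and 9.93 and 13.4 CPM. The 4 IgE DNP samples were the lowest of the 16. Arntl fell by 0.93 on the log2 scale without DEX (SE 0.16, 1.9-fold, edgeR adjusted p = 0.00228), and this call held without any 1 sample. Under DEX its log2 fold change was -0.39 (SE 0.16, edgeR adjusted p = 0.144), with overlapping groups, and with the replicate block -0.40 (edgeR adjusted p = 0.0225).

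DNP lowered Per3 on top of the DEX effect. The change was -0.67 on the log2 scale without DEX (SE 0.16, edgeR adjusted p = 0.014) and -0.83 under DEX (SE 0.16, edgeR adjusted p = 0.00702), and in both settings the DNP samples lay below the others. The first call was lost without the numbered PEP-/- IgE sample or the lettered IgE DNP sample of either genotype (edgeR adjusted p up to 0.0586) and with no filter (0.076). The second was lost with only the groups compared (0.0602).

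Per1 and Cry2 had DNP responses of opposite sign without and under DEX. Per1 had a log2 fold change of 0.45 without DEX (SE 0.24, edgeR adjusted p = 0.269) and -0.59 under DEX (SE 0.24, edgeR adjusted p = 0.141), and with the replicate block both were called (0.44, edgeR adjusted p = 0.00434, and -0.60, edgeR adjusted p = 0.000397). Cry2 had -0.24 without DEX (SE 0.12, edgeR adjusted p = 0.232) and rose by 0.49 under DEX (SE 0.12, edgeR adjusted p = 0.0193). The Cry2 rise was lost without the numbered IgE DEX sample of either genotype or the lettered PEP-/- IgE DEX or IgE DNP DEX sample (edgeR adjusted p up to 0.0735), with no filter (0.22) and with only the groups compared (0.0821).

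The other clock genes were not called with DNP. Nr1d2 was at 15.7 to 27.5 CPM with IgE, 10.1 to 21.2 with IgE DNP, 10.7 to 19.4 with IgE DEX and 8.12 to 12.5 with IgE DNP DEX, and its log2 fold changes were -0.60 and -0.64 (SE 0.28 each). Clock had -0.23 and -0.51 (SE 0.26 each), Cry1 0.19 and 0.24, Per2 0.04 and -0.22, and Nr1d1 -0.74 (SE 0.64) and 0.23 (SE 0.56). Nr1d2 was called lower with the replicate block in both settings (edgeR adjusted p = 0.0257 and 0.0217) and Clock under DEX (-0.49, edgeR adjusted p = 0.00885). The number of clock genes called then rose from 3 to 5 without DEX and from 3 to 7 under DEX, with 37.9% and 37.6% of all genes called.

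Whether the DNP response differed with DEX was tested by the interaction of both agents, averaged over genotypes. The same test asks whether the DEX response differed between sensitized and activated cells, since both differences are the same quantity. No clock gene was called by edgeR, and 0.331% of all genes were called. An unadjusted p below 0.05 was found in edgeR for 3 of the 10 clock genes and for 485 of the 13305 genes tested. The difference between the DNP responses was -1.04 for Per1 (SE 0.34, edgeR adjusted p = 0.787), 0.73 for Cry2 (SE 0.17, edgeR adjusted p = 0.19) and 0.54 for Arntl (SE 0.23, edgeR adjusted p = 1). For Per1 the 4 differences within a set and genotype ran from 0.24 to 0.72 without DEX and from -0.69 to -0.47 under DEX, and for Cry2 from -0.40 to -0.12 and from 0.37 to 0.61. With the replicate block, which calls 1.57% of all genes, Per1 (-1.04, edgeR adjusted p = 0.00149) and Cry2 (0.73, edgeR adjusted p = 0.0114) were called. DESeq2 called Cry2 alone among the 10.

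**Figure D3:**
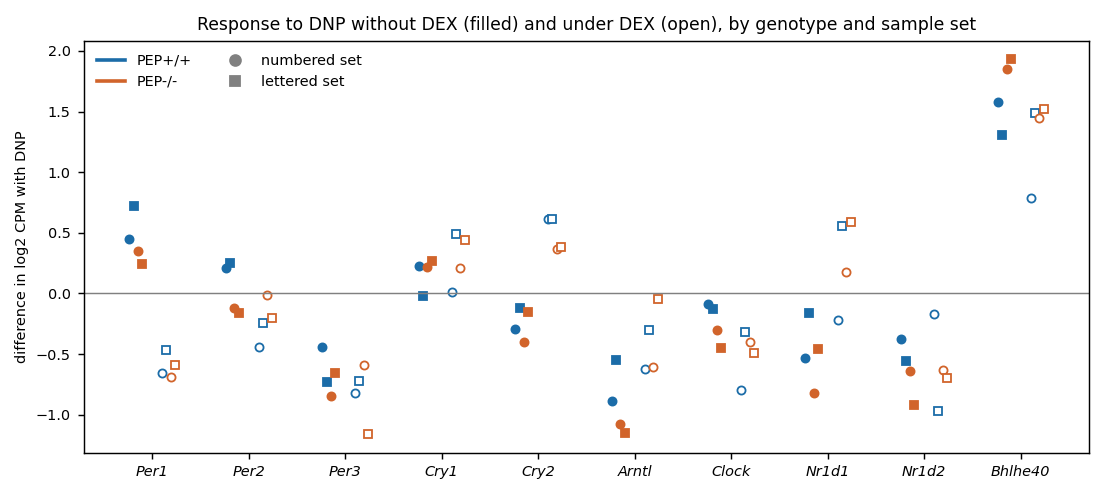
Difference in log2 CPM between the sample with and without DNP of the same genotype and set (y axis) for each clock gene, without DEX as filled and under DEX as open symbols; colours and shapes are as in the plot of levels. The filled Per1 symbols lie above 0 and the open ones below, the Cry2 symbols lie the other way, and all 8 Bhlhe40 symbols are at 0.79 or higher.

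The third question was whether loss of PEP changed these responses. No clock gene was called by edgeR in the genotype difference of any of the 4 responses, and none had an unadjusted p below 0.05 in edgeR, with the replicate block or in DESeq2. Of all genes tested, 0% were called there. Over all 13305 genes an unadjusted p below 0.05 was also rare in edgeR. Where no gene differs, a well-calibrated test gives such a p for a share of 0.05 of the genes. The numbers were 40 and 95 for DEX in sensitized and activated cells, and 30 and 53 for DNP without and under DEX. With the replicate block they were 309, 485, 143 and 306 in the same order. The numbers lie below that share with and without the block, so these tests were conservative and could miss differences. The difference between the responses of PEP-/- and PEP+/+ BMMCs ranged from -0.32 (Per2, SE 0.67) to 1.13 (Nr1d1, SE 1.15) for DEX in sensitized cells, from -0.21 (Cry2, SE 0.24) to 1.76 (Nr1d1, SE 1.25) for DEX in activated cells, from -0.57 (Nr1d1, SE 1.25) to 0.43 (Bhlhe40, SE 0.40) for DNP without DEX, and from -0.24 (Cry2, SE 0.24) to 0.39 (Bhlhe40, SE 0.40) for DNP under DEX. The standard errors leave room for sizeable differences, and such a test does not show that the responses were alike.

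Within each genotype, with 2 samples against 2, fewer genes were called. DEX in sensitized cells changed 1 of the 10 in PEP+/+ and 2 in PEP-/- BMMCs (3.18% and 3.34% of all genes were called), and DEX in activated cells 2 and 3 (3.03% and 3.28%). DNP changed 1 and 2 without DEX (5.9% and 7.22% of all genes) and 0 and 1 under DEX (3.84% and 3.98%). In PEP+/+ BMMCs under DEX, 3 of the 10 and 2189 of the 13305 genes had an unadjusted p below 0.05 in edgeR. DESeq2 called 2 of the 10 there and 954 of all genes. Per1 rose by 2.67 (SE 0.36, edgeR adjusted p = 0.0018) in PEP+/+ and 2.62 (SE 0.36, edgeR adjusted p = 0.00182) in PEP-/- sensitized cells with DEX, and by 1.52 (SE 0.35, edgeR adjusted p = 0.0385) and 1.69 (SE 0.35, edgeR adjusted p = 0.0231) in activated cells. Cry2 rose by 1.23 (SE 0.17, edgeR adjusted p = 0.00248) and 1.03 (SE 0.17, edgeR adjusted p = 0.00652) in activated cells with DEX. Bhlhe40 rose by 1.45 (SE 0.29, edgeR adjusted p = 0.012) and 1.89 (SE 0.29, edgeR adjusted p = 0.00224) with DNP alone.

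Leaving out a sample of a compared group leaves 1 sample there, and its spread is then taken from the other groups. The log2 fold changes stayed positive over the 16 omissions, between 1.05 and 1.92 for Per1 in activated PEP+/+ BMMCs, 1.47 and 1.89 for Per1 in activated PEP-/- and 1.26 and 1.57 for Bhlhe40 in PEP+/+ with DNP alone, and at 0.95 or above for Cry2 in activated PEP-/-, but these calls were lost in some. Per1 in activated PEP+/+ BMMCs was lost without 11 of the 16 samples, that is all but the IgE DEX samples of PEP+/+, the numbered PEP+/+ IgE DNP DEX sample and the PEP-/- IgE DNP DEX samples (edgeR adjusted p up to 0.273), and in PEP-/- BMMCs without any 1 of its IgE DNP or IgE DNP DEX samples (up to 0.189). Cry2 in activated PEP-/- BMMCs was lost without either PEP-/- IgE DNP sample (edgeR adjusted p up to 0.0877) and with no filter (0.0629), and Bhlhe40 in PEP+/+ BMMCs without either PEP+/+ IgE or the numbered PEP+/+ IgE DNP sample (up to 0.0984). With only the groups compared in the fit, none of these 4 was called, nor was Cry2 in activated PEP+/+ BMMCs (edgeR adjusted p from 0.0691 to 0.207).

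Per3 with DEX was -0.75 (SE 0.23, edgeR adjusted p = 0.122) in PEP+/+ and -1.0 (SE 0.23, edgeR adjusted p = 0.0353) in PEP-/- sensitized cells, and the Arntl change with DNP alone was -0.72 (SE 0.23, edgeR adjusted p = 0.104) and -1.13 (SE 0.23, edgeR adjusted p = 0.0109). These sit on either side of the threshold, and the genotype differences of -0.25 (SE 0.32) and -0.41 (SE 0.32) both had an edgeR adjusted p of 1. Per3 was lost without 10 of the 16 samples, that is any 1 PEP-/- sample or either PEP+/+ IgE sample (edgeR adjusted p up to 0.296), and Arntl without either PEP-/- IgE DNP or the lettered PEP-/- IgE sample (up to 0.103). Their log2 fold changes over the omissions were -1.21 to -0.82 and -1.23 to -1.03. Both calls were lost with no filter (edgeR adjusted p = 0.133 for Per3 and 0.0732 for Arntl) and with only the groups compared (0.247 and 0.132). In activated PEP-/- BMMCs Per3 fell by 1.13 with DEX (SE 0.23, edgeR adjusted p = 0.0233), and under DEX Bhlhe40 rose by 1.48 with DNP in PEP-/- BMMCs (SE 0.29, edgeR adjusted p = 0.0153). That Per3 call was lost without any 1 of the PEP-/- IgE DNP or IgE DNP DEX samples (edgeR adjusted p up to 0.17), with no filter (0.0572) and with only the groups compared (0.225). That Bhlhe40 call was lost without the numbered PEP-/- IgE DNP DEX or the lettered PEP-/- IgE DEX sample (edgeR adjusted p up to 0.177) and with only the groups compared (0.201).

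Averaged over the treatments, no clock gene was called between genotypes by edgeR or DESeq2 (1 had an unadjusted p below 0.05 in each, and edgeR called 1.59% of all genes). Per3, the gene nearest to a call, was higher by 0.30 in PEP-/- BMMCs (SE 0.11, edgeR adjusted p = 0.248). With the replicate block, which calls 17.4% of all genes, Per1 was called higher in PEP-/- BMMCs by 0.23 (edgeR adjusted p = 0.0466).

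**Figure D4:**
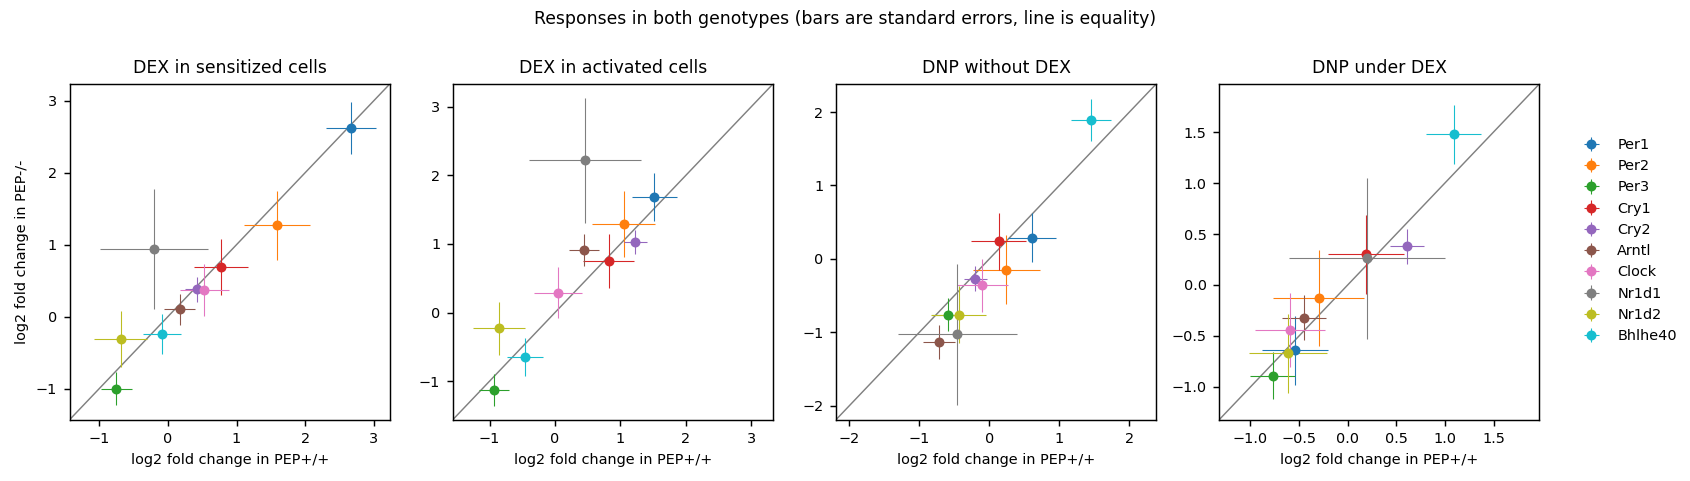
Log2 fold change of each clock gene in PEP+/+ (x axis) against PEP-/- BMMCs (y axis) in the 4 responses, with standard errors from edgeR as bars and the line of equality. Most points lie within their bars of the line, and the low-count gene Nr1d1 has the widest bars, with SEs from 0.79 to 0.96.

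Further genes of the clock were taken as a list of 20, of which 16 passed the filter. Npas2, Arntl2, Bhlhe41 and Rorb had at most 8 reads in any sample and were not tested. DEX raised 3 and lowered 1 of the 16 in sensitized cells, and raised 3 and lowered 4 in activated cells, where 5.4% and 3.98% and then 5.67% and 4.99% of all genes were called higher and lower. DNP raised 3 and lowered 1 without DEX, and raised 2 and lowered 1 under DEX, against 9.07% and 7.58% and then 7.19% and 5.42% of all genes. With the replicate block, the numbers raised and lowered became 4 and 6 and then 6 and 7 for DEX, and 7 and 5 and then 4 and 5 for DNP, where the block called 26.7% and 33.3% of all genes for DEX and 37.9% and 37.6% for DNP.

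Ciart encodes CHRONO, a repressor of the CLOCK and BMAL1 pair, and it rose with DEX by 2.64 (SE 0.44, edgeR adjusted p = 0.00273) in sensitized and 2.87 (SE 0.48, edgeR adjusted p = 0.00289) in activated cells, at 0.882 to 1.65 CPM with IgE and 4.3 to 10.3 with IgE DEX. Usp2, a deubiquitinating enzyme that acts on clock proteins, rose by 1.87 (SE 0.41, edgeR adjusted p = 0.0132) and 2.15 (SE 0.44, edgeR adjusted p = 0.00915). In the IgE DNP samples Ciart had only 2 to 12 reads and Usp2 4 to 23, so the sizes of their rises in activated cells rest on few reads. The deacetylase gene Sirt1 rose by 0.57 and 0.46 (edgeR adjusted p = 0.0161 and 0.0458), and Nampt, which encodes an enzyme of NAD+ salvage, fell by 0.62 in activated cells (edgeR adjusted p = 0.0452).

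Among the factors that bind D-boxes, the repressor gene Nfil3 was at 2.5 to 3.82 CPM with IgE and at 37.9 to 54.3 with IgE DNP, a rise of 3.97 on the log2 scale (SE 0.23, edgeR adjusted p = 1.01e-06). Under DEX the rise with DNP was 2.81 (SE 0.22, edgeR adjusted p = 1.47e-05). The activator gene Dbp fell by 1.35 (SE 0.22, edgeR adjusted p = 0.0016) without and by 0.77 (SE 0.22, edgeR adjusted p = 0.039) under DEX. Hlf rose by 1.10 with DNP alone (SE 0.30, edgeR adjusted p = 0.0291) and fell by 1.73 with DEX in activated cells (SE 0.31, edgeR adjusted p = 0.00484), and Nfil3 fell there by 0.88 (edgeR adjusted p = 0.0163).

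Fbxl21 encodes an F-box protein that sets the stability of the cryptochromes. Fbxl21 was at 16.8 to 44.6 CPM with IgE, 128 to 297 with IgE DNP, 2.54 to 8.76 with IgE DEX and 10.3 to 27.4 with IgE DNP DEX, so none of the 4 groups of 4 samples overlapped except IgE and IgE DNP DEX. It rose with DNP by 2.71 (SE 0.28, edgeR adjusted p = 6.87e-05) and 1.86 (SE 0.29, edgeR adjusted p = 0.00156), and fell with DEX by 2.46 (SE 0.29, edgeR adjusted p = 0.000274) and 3.32 (SE 0.29, edgeR adjusted p = 3.26e-05).

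The calls of Ciart and Fbxl21, and those of Nfil3 with DNP, held without any 1 sample. Nampt kept its call only without a PEP+/+ IgE DEX sample or the lettered PEP+/+ IgE DNP sample (edgeR adjusted p up to 0.153), Sirt1 in activated cells only without the numbered PEP+/+ IgE DNP or IgE DNP DEX sample (up to 0.124), and Dbp under DEX only without the lettered PEP+/+ IgE, the numbered PEP+/+ IgE DEX or a PEP-/- IgE sample (up to 0.157). In sensitized cells Sirt1 was lost without the numbered IgE DEX or the lettered IgE sample of either genotype (edgeR adjusted p up to 0.0772), and Usp2 without a PEP+/+ IgE sample or the numbered PEP-/- IgE sample (up to 0.0631). The fall of Nfil3 with DEX was lost without the numbered IgE DNP DEX or the lettered IgE DNP sample of either genotype (edgeR adjusted p up to 0.0829), and the rise of Hlf without the numbered IgE DNP or the lettered IgE sample of either genotype (up to 0.115). Dbp under DEX (edgeR adjusted p = 0.112) and both Sirt1 calls (0.115 and 0.263) were lost with no filter, and the calls of Usp2, Nampt, Sirt1 and Nfil3 with DEX in activated cells, of Hlf with DNP and of Dbp under DEX with only the groups compared (0.0502 to 0.149).

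**Figure D5:**
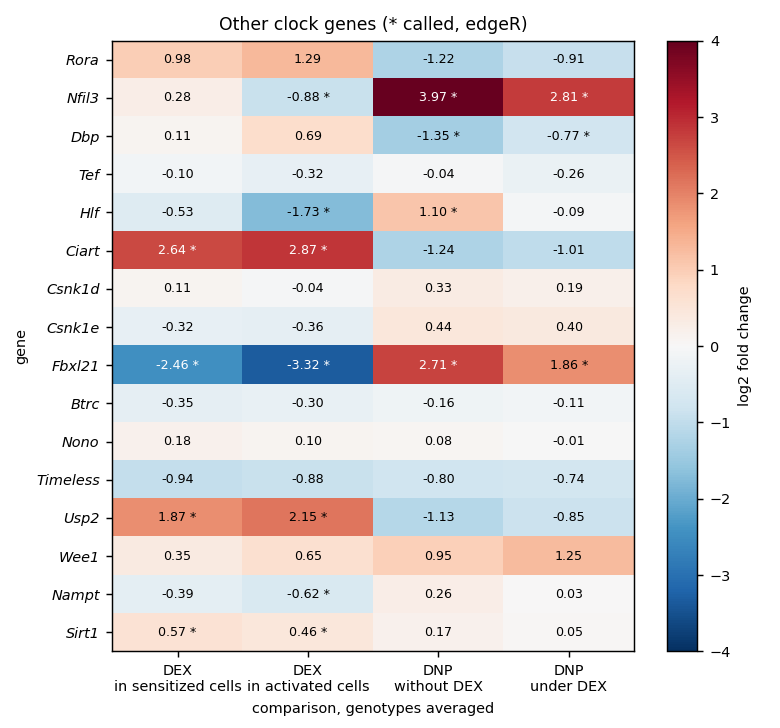
Log2 fold changes, averaged over genotypes, of the 16 tested genes of the further list (rows) in the 4 comparisons (columns), with colour running from blue (lower) to red (higher) and stars on values called by edgeR. Nfil3 and Fbxl21 have the largest rises with DNP (3.97 and 2.71), Ciart and Usp2 the largest with DEX, from few reads in the IgE DNP samples.

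Over the 8 group means, the pattern of Per1 was close to that of Per2 (Pearson's r = 0.99), Arntl ran opposite to Bhlhe40 (r = -0.92) and Per3 opposite to Cry1 (r = -0.93). Among all genes tested, the pattern most like that of Per1 was that of Pced1b (r = 0.992), and those nearest to Per2 were Tob1 (0.996) and Mrgpra9 (0.994). Bhlhe40 was nearest to Cdc42se1 (0.997), Arntl to Zfp758 (0.995), Per3 to Zfp414 (0.993) and Cry2 to Lemd2 (0.988). The 8 means share treatments and samples, and these coefficients are given as a description.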

How the data were processed

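Poly(A) RNA of the 16 BMMC samples had been sequenced in pairs of reads from stranded libraries. According to the methods of the study, TopHat2 alignments to GRCm38 were made by the authors, who deposited whole-number counts of reads per Ensembl gene from HTSeq, without normalization; the strand setting of the counting is not given in the sources used here. The 5 rows that name no gene were left out. Reads on no gene, ambiguous reads and reads without a unique place were 29.1% to 49.6% of these and the reads on genes together, per sample. Names and positions came from GENCODE M21, in which 37607 of 39179 identifiers were found. All values were computed from the deposited counts. Genes were kept by filterByExpr (minimum count 10), scaled by TMM and tested with edgeR 4.0.16 under R 4.3.3 (functions glmQLFit and glmQLFTest). The model had a mean per group (8 groups, all 16 samples), and Benjamini-Hochberg adjustment ran over 13305 genes (threshold 0.05). The SE is the log2 fold change over the square root of F. The test was also run on data simulated from the fit to these samples, after that fit was made, and the outcome is not given here. Depth (8612531 to 22143526 reads) limits genes with few reads, and the reads carry no molecular identifiers.

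The replicate block adds the sample set (numbered or lettered in the labels) to the fit. Same-set samples deviated together in all 28 pairs of groups (correlation of deviations from the group means 0.45 to 0.80, median 0.72), so the sets were taken as pairing the samples; the labels do not say what a set is. The block lowered edgeR's common coefficient of variation from 0.312 to 0.133. Alternatives were DESeq2 1.42.0, its size factors, no filter, a floor of 10 counts in each sample, a fit on the compared groups alone, and leaving out each sample. The 10 genes, the further clock genes, the markers and the tests were chosen with earlier results of these data known. All 10 genes are named, and so is each gene of the further list that was called in an averaged response or could not be tested, apart from list genes that are not reported here. Nearest patterns were ranked by Pearson's r over the 8 group means of log2 CPM for members called in an averaged response. The 10 genes themselves were left out of that ranking. Promoter windows came from RefSeq (GRCm38.p6).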

Additional observations from a re-analysis of the deposited data

Results flagged for a closer look

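Per1 is listed because its 4 within-set differences with DNP were above 0 without DEX (0.45, 0.72, 0.35 and 0.24 on the log2 scale) and below 0 under DEX (-0.66, -0.47, -0.69 and -0.59). The tested difference was -1.04 (edgeR adjusted p = 0.787), and -1.04 with the replicate block (edgeR adjusted p = 0.00149). Cry2 is listed for the reverse pattern, with -0.29, -0.12, -0.40 and -0.15 without DEX and 0.61, 0.61, 0.37 and 0.38 under DEX. Its tested difference was 0.73 (edgeR adjusted p = 0.19), and 0.73 with the replicate block (edgeR adjusted p = 0.0114). Per2 is listed because DNP without DEX gave 0.21 and 0.25 in PEP+/+ but -0.12 and -0.16 in PEP-/- BMMCs. The tested genotype difference of Per2 was -0.39 (edgeR adjusted p = 1).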

How the results depend on the processing

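With the replicate block, 39 of 140 results on single clock genes (10 genes in 14 comparisons) became called and none lost its call. The numbers of clock genes called became 6 and 8 for DEX in sensitized and activated cells, 5 and 7 for DNP without and under DEX, 2 for the interaction and 1 for the genotype average. Within PEP+/+ they became 4, 5, 4 and 5 in the same order of responses, and within PEP-/- 4, 8, 3 and 3. DESeq2 called 10 more of 139 results and lost none, with counts of 3 for DEX in sensitized PEP+/+ BMMCs, 2 for DNP under DEX in each genotype and 1 for the interaction. Its counts were also 4 for DEX in sensitized cells over both genotypes, where Cry2 was added, and 3 for DNP alone in PEP-/-. For DEX in activated PEP+/+ and PEP-/- BMMCs they were 3 and 4. For the settings that follow, counts within 1.5 times the reported ones are left out. DESeq2's size factors in edgeR changed no call of the 140. Without a filter, 8 calls were gained and 7 lost, with counts of 2 for DEX in sensitized PEP+/+ BMMCs, 1 for DNP alone in PEP-/- and 1 for DNP under DEX in PEP+/+. With at least 10 counts in every sample, which removes Nr1d1, the counts were 1 for DEX in activated PEP+/+ BMMCs and 1 for DNP under DEX in PEP+/+. With only the groups compared, 13 of 113 results lost their call. The counts were then 3 for DEX in activated cells and 1 for DNP under DEX over both genotypes, 0 and 0 for DEX in activated PEP+/+ and PEP-/- BMMCs, 1 for DEX in sensitized PEP-/-, 0 and 1 for DNP alone in PEP+/+ and PEP-/-, and 0 for DNP under DEX in PEP-/-. That fit equals the reported one for the interaction and the genotype average. Over all genes tested, the calls went from 1247, 1418, 2216 and 1678 in the 4 averaged responses to 3548, 4429, 5042 and 5007 with the block, and with only the groups compared to 805 for DEX in activated cells and 953 for DNP under DEX. Within a genotype they went from 403 to 960 per response to 1955 to 3480 with the block, 804 to 1473 with DESeq2 and 0 to 355 with only the groups compared, and for DEX from 403 to 445 up to 746 to 831 without a filter. The interaction went from 44 to 209 with the block, 101 with DESeq2 and 107 without a filter, and the genotype average from 212 to 2310, 707 and 472. No direction of a clock gene turned under any of these settings in the 14 comparisons, and for each loss the cause was not tested. The genotype differences of the 4 responses are not among the 14, and there directions did turn with the block. The number of the 10 genes with a positive difference went from 2 to 3 for DEX in sensitized cells and from 6 to 5 for DNP under DEX. The fit with only the groups compared has fewer samples, and this was not separated from its other changes.

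Leaving out each sample in turn gave 3 to 5 calls for DEX in activated cells over both genotypes, 1 to 2 in activated PEP+/+ and 0 to 3 in activated PEP-/- BMMCs, 1 to 2 for DEX in sensitized PEP-/-, 0 to 1 and 1 to 2 for DNP alone in PEP+/+ and PEP-/-, and 0 to 1 for DNP under DEX in each genotype. The other omissions kept the count within 1.5 times. Of 2240 such values, 52 turned direction, all of results that were not called. For Per2 the ranges were -0.19 to 0.29 and -0.49 to 0.03 for DNP without and under DEX, -0.09 to 0.50 and -0.87 to 0.13 for these in PEP+/+, -0.60 to 0.34 and -0.50 to 0.36 in PEP-/-, and -0.01 to 0.26 for the genotype average. For Cry1 they were -0.04 to 0.34 for DNP alone, -0.32 to 0.43 and -0.23 to 0.77 for DNP without and under DEX in PEP+/+, and -0.15 to 0.35 for the interaction. Clock ranged from -0.26 to 0.55 for DEX in activated and -0.60 to 0.33 for DNP alone in PEP+/+, and from -0.20 to 0.00 for the genotype average. Nr1d1 ranged from -0.49 to 0.75 for DEX in sensitized cells (-0.60 to 0.23 in PEP+/+, -0.78 to 1.70 in PEP-/-) and from -0.29 to 1.09 for DNP under DEX (-0.14 to 0.60 in PEP+/+, -0.79 to 1.98 in PEP-/-). Nr1d2 ranged from -0.57 to 0.21 for DEX in activated PEP-/-, from -1.06 to 0.02 for DNP alone in PEP+/+ and from -0.27 to 0.28 for the interaction, and Bhlhe40 from -0.52 to 0.24 and -0.57 to 0.03 for DEX in sensitized PEP+/+ and PEP-/-. At 2 to 21 reads per sample, counting error limits what can be said of Nr1d1.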
